A study of Homo sapiens with 6 samples.

Results

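The loci described here are 462 assembled transcript loci that carry XLOC numbers in place of gene names. They were chosen as the XLOC rows that have a complete line in the tables of control replicate 1, control replicate 2 and overexpression replicate 2, the 3 libraries whose tables reach furthest into that part of the list. The choice used no expression value. The 6 tables hold 20921 different rows in all, of which 20330 are Ensembl genes and 591 are XLOC loci. Of the 462 loci, 318 were also listed for overexpression replicate 3, and 68 were listed in all 6 libraries. The 68 have numbers from 3 to 1959, where the list of overexpression replicate 1 ends. Results from all 6 libraries therefore cover only this first stretch of the numbers.

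An XLOC identifier is given by the Cufflinks tools to a group of overlapping transcripts that were assembled from sequencing reads. Such loci can be long noncoding RNAs without an entry in the gene annotation, antisense or intergenic transcripts, pseudogenes, or unannotated extensions of known genes. The numbers are counted within one assembly, so the same number in another study need not be the same locus. Long noncoding RNAs are as a class transcribed at lower levels than mRNAs, and many act in or near the nucleus.

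The study compared U251 cells, an established human glioblastoma line, in 2 groups of 3 libraries: control cells, and cells with stable overexpression of the long noncoding RNA XLOC013218. The design text calls the replicates of each group independent and biological. The labels do not say which vector the control cells carry, which promoter drives the overexpression, or whether each stable line is 1 clone. The labels' protocols describe poly(A)-selected stranded libraries, whereas the series' design text describes cytoplasmic RNA without that selection. Levels are FPKM, fragments scaled to transcript length and to the mapped total of the library. Depth in reads is unknown. Steps between low values put the relative depth of the libraries between 0.77 and 1.0, with control replicate 2 taken as 1.0. The labelled cell type was checked on its markers: VIM lay between 3502 and 4011 FPKM, SOX2 between 98.1 and 119 FPKM and GFAP between 14.4 and 46.0 FPKM, while S100B was at most 0.89 FPKM and CHI3L1 at most 0.03 FPKM. Values were had for 8 listed markers of leukocytes, endothelium, epithelium and neurons. The listed endothelial marker PECAM1 gave no value. Of the 8, CD3E and KRT20 were at 0 in all 6 libraries, and VWF, EPCAM and RBFOX3 were at most 0.19 FPKM. The neuronal SYT1 lay between 6.93 and 9.35 FPKM. The groups did not overlap in the leukocyte genes CD68 and PTPRC, or in SOX2 and GFAP. CD68 was at 6.61 to 7.49 FPKM in control and 9.53 to 11.1 FPKM in overexpression. In the same order, PTPRC was at 0.13 to 0.17 and 0.39 to 0.65 FPKM. SOX2 was at 113.83 to 118.66 and 98.1 to 104.78 FPKM, and GFAP at 34.68 to 45.98 and 14.36 to 30.05 FPKM. Of all rows that averaged 1 FPKM or more, 18.9% did not overlap. In the limma fit with 3 libraries per group, described below, the adjusted p was 0.0831 for CD68, 0.120 for SOX2 and 0.107 for GFAP. PTPRC was too low for that fit. The part of these genes in the results on the loci was not tested. The tables give each XLOC locus a number and a value, without a position or sequence.

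Most of the loci were detected at low levels. The median XLOC level was 0.975 FPKM in control replicate 1, 1.075 FPKM in control replicate 2 and 0.98 FPKM in overexpression replicate 2. The Ensembl rows had a median between 3.4 and 3.52 FPKM over the 6 libraries. The lower and upper quartiles of the loci were 0.433 and 3.12 FPKM in control replicate 1, and in the same library 230 of 462 loci (49.8%) reached 1 FPKM and 38 (8.23%) reached 10 FPKM. Of the Ensembl rows, 57.4% reached 1 FPKM there and 37.5% reached 10 FPKM. XLOC loci were thus narrower in range than the annotated genes, with fewer rows at both ends.

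**Figure D1:**
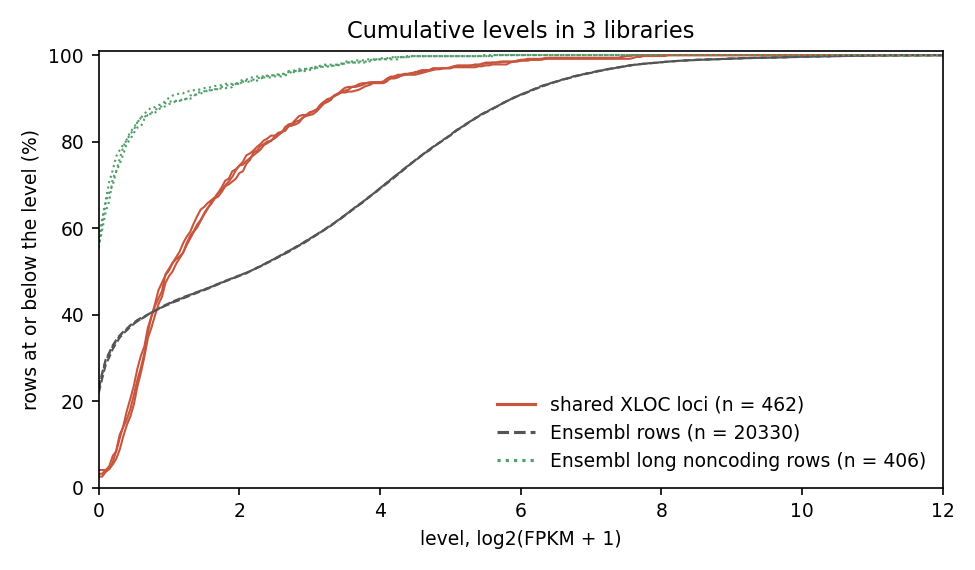
Cumulative share of rows (vertical axis, %) at or below a level (horizontal axis, log2(FPKM + 1)) in control replicates 1 and 2 and overexpression replicate 2, with 1 line per library for the 462 shared XLOC loci, the 20330 Ensembl rows and the 406 Ensembl rows of long noncoding genes. The XLOC lines start near 3% at a level of 0 and cross the Ensembl lines, which start near 22%.

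Few of the loci were listed at 0. The share at 0 was 3.25% in control replicate 1 (15 loci), 2.60% in control replicate 2 (12 loci) and 4.11% in overexpression replicate 2 (19 loci), against 23.1%, 22.6% and 21.9% of Ensembl rows. The difference was -19.2 ± 1.26 percentage points (SD, n = 3 libraries), negative in all 3. Over the 68 loci listed in all 6 tables it was -19.7 ± 1.45 points (SD, n = 6), and an exact two-sided sign-flip permutation test over the 6 libraries gave p = 0.03125, the smallest that 6 libraries allow. The median of log2(FPKM + 1) over these 68 loci was lower than that of the Ensembl rows in all 6 libraries, with a difference of -1.32 ± 0.03 (SD, n = 6) and the same exact permutation p of 0.03125. All 6 libraries measured the same rows in U251 cells. Either p therefore shows only that the sign repeated between libraries, and does not extend to other loci. The order depends on the threshold: counted as under 1 FPKM, undetected rows were more frequent among the shared loci, by 7.44 percentage points.

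Against the long noncoding genes among the Ensembl rows the loci stood higher. These genes are a small part of the Ensembl rows, of which 19010 are classed as protein-coding. The tables hold 406 Ensembl rows that GENCODE 29 classes as long noncoding, of which between 55.2% and 58.6% were listed at 0 per library and between 10.1% and 11.6% reached 1 FPKM. Their median was 0 in each of the 6 libraries, whereas the median of log2(FPKM + 1) over the 68 loci of all 6 tables was 0.84 ± 0.04 (SD, n = 6). Because a median of 0 cannot be undercut, that difference was not tested. The share at 0 among the 68 loci minus that among these genes was -54.0 ± 1.73 percentage points (SD, n = 6), with an exact sign-flip permutation p of 0.03125. That p likewise shows only that the sign repeated between libraries over the same rows. Of a list of 29 well-studied long noncoding RNAs, with MALAT1, NEAT1, GAS5 and TUG1 among them, 0 were matched by symbol to an Ensembl row, so that list gave no values. The 406 rows therefore do not stand for annotated long noncoding genes as a class. The sources used here do not give the reads that the XLOC loci were assembled from, or the rule by which they entered the tables. The part of that selection in the low share at 0 was not tested.

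Detection was mostly the same in the 3 libraries. Above 0 in all 3 were 429 of 462 loci (92.9%), against 72.1% of Ensembl rows, and 3 loci were at 0 in all 3. The remaining 30 loci (6.49%) were at 0 in some of the 3 libraries, against 11.1% of Ensembl rows. Of these 30, 23 were at 0 in a single library, namely 6 in control replicate 1, 5 in control replicate 2 and 12 in overexpression replicate 2. Above 0 in a single library were 1, 3 and 3 loci in the same order. For Ensembl rows these counts were 351, 327 and 314 at 0, and 327, 396 and 538 above 0. Over the 318 loci also listed for overexpression replicate 3, that library had 8 loci at 0. Over the same 318, control replicates 1 and 2 had 9 and 8 and overexpression replicate 2 had 16. The highest value of these 30 loci had a median of 0.575 FPKM, so most of these changes between 0 and a value took place at a low level. For the Ensembl rows at 0 in some of the 3 libraries that median was lower, at 0.06 FPKM. XLOC_006838 was among the exceptions. It was at 8.84 FPKM in control replicate 1, 0 in control replicate 2, 3.57 FPKM in overexpression replicate 2 and 1.46 FPKM in overexpression replicate 3. XLOC_008319, at 0 in all 3 libraries, was listed at 3.29 FPKM in overexpression replicate 3. These 2 loci were chosen after their values were seen.

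A small number of loci held much of the XLOC signal. The 12 loci with the highest mean over the 3 libraries took 44.2%, 43.4% and 51.1% of the summed XLOC level in control replicates 1 and 2 and overexpression replicate 2. XLOC_000572 was the highest, at 192.87, 192.49 and 192.47 FPKM in control replicates 1 to 3 and 184.45, 196.44 and 192.75 FPKM in overexpression replicates 1 to 3. Its groups overlapped, and the control values were almost equal. XLOC_012620 was at 173.4 and 172.45 FPKM in control replicates 1 and 2 and at 192.6 FPKM in overexpression replicate 2. XLOC_009806 was at 81.9, 78.41 and 78.95 FPKM in the same 3 libraries. The level of XLOC_009806 lay near that of NES, a neural progenitor filament protein, which averaged 82.0 FPKM over these libraries. XLOC_000572 and XLOC_012620 stood above NES.

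The other loci of the 12 were between 41.5 and 186 FPKM on average, apart from XLOC_010526, which is described separately. XLOC_003486 stood out for 1 library: it was at 65.9, 76.33 and 108.75 FPKM in control replicates 1 to 3 and at 68.91 and 65.14 FPKM in overexpression replicates 2 and 3, so that control replicate 3 was highest and the other values lay together. XLOC_000565 was at 60.51, 59.21 and 67.64 FPKM in control and at 76.09, 62.29 and 71.26 FPKM in overexpression replicates 1 to 3, with overlap. XLOC_000567 was at 63.92, 62.85 and 63.79 FPKM in control and at 62.79, 57.4 and 65.35 FPKM in overexpression, also with overlap. XLOC_000565 and XLOC_000567 are 2 numbers apart, and XLOC_000566 between them averaged 0.67 FPKM over the 3 libraries. Leaving XLOC_010526 aside, the highest of the 3 values of a top locus was between 1.02 and 1.32 times its lowest.

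**Figure D2:**
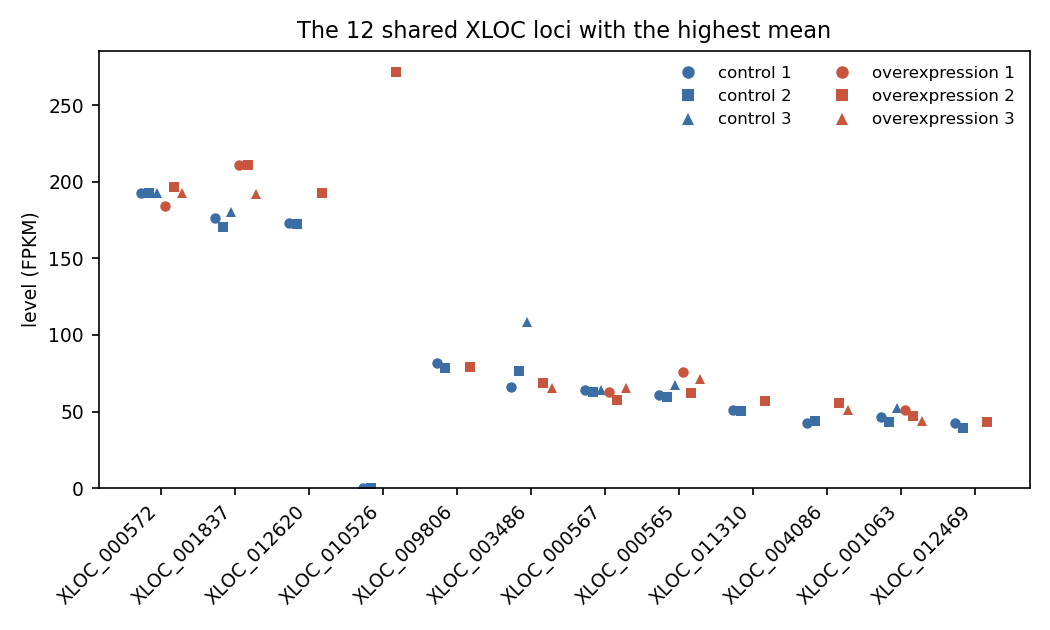
Level (vertical axis, FPKM) of the 12 shared XLOC loci with the highest mean over control replicates 1 and 2 and overexpression replicate 2, with 1 point per library that lists the locus (blue, control; red, overexpression; the shape gives the replicate). XLOC_010526 is at or near 0 in both control libraries and at 272.12 FPKM in overexpression replicate 2, while the other 11 loci differ by at most 1.32-fold among these 3 libraries. In XLOC_003486 control replicate 3 stands apart at 108.75 FPKM.

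XLOC_010526 was at or near 0 in 2 control libraries and abundant in 1 overexpression library. It was listed at 0.2 FPKM in control replicate 1, at 0 in control replicate 2 and at 272.12 FPKM in overexpression replicate 2, the highest value of any shared locus in that library. There 307 of 20330 Ensembl rows were higher, against 13295 in control replicate 1. The difference of overexpression replicate 2 from the control mean was 7.96 on the log2(FPKM + 1) scale, the largest of 11922 rows that averaged 1 FPKM or more, and the next was an Ensembl row with a difference of 4.25 in size. The tables of the other 3 libraries end before this number, so the value rests on 1 overexpression library and has no replicate check. No test of this difference is given, since 1 side has 1 library and the locus reached the mean of 1 FPKM through that library alone.

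The files give XLOC_010526 no name, position or sequence. The overexpressed RNA is XLOC013218 in the labels. The tables of these 3 libraries run past that number and list few of the numbers in their range, and no row read here carries it. Whether XLOC_010526 is the RNA that was overexpressed was not tested. The locus moved the summed XLOC level: the 462 loci summed to 2255 and 2277 FPKM in control replicates 1 and 2 and to 2624 FPKM in overexpression replicate 2, or 0.363%, 0.371% and 0.422% of the Ensembl sum. Without XLOC_010526 the sum in overexpression replicate 2 was 2352 FPKM, or 0.378% of the Ensembl sum, and the excess over the control mean went from 358 to 86.2 FPKM.

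**Figure D3:**
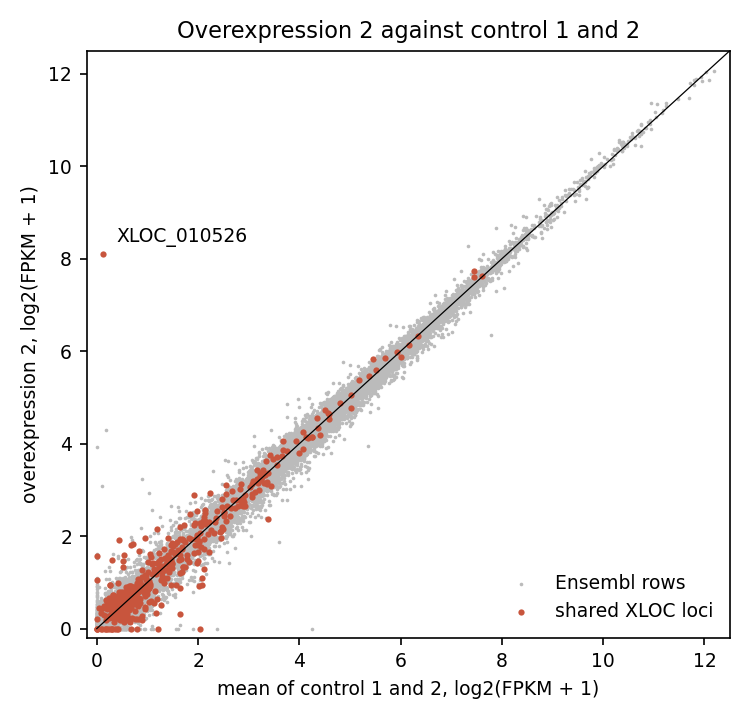
Level in overexpression replicate 2 (vertical axis) against the mean of control replicates 1 and 2 (horizontal axis), both as log2(FPKM + 1), with 1 point per row (grey, 20330 Ensembl rows; red, 462 shared XLOC loci) and the line of equal levels. XLOC_010526 lies 7.96 above its control mean, farther from the line than any other row that averaged 1 FPKM or more.

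Values of the loci repeated less closely between libraries than those of Ensembl rows. Among rows that averaged 1 FPKM or more in the 3 libraries, 234 XLOC and 11688 Ensembl, the SD of the log2(FPKM + 1) difference between control replicates 1 and 2 was 0.40 for XLOC loci and 0.19 for Ensembl rows. The median size of that difference was 0.15 and 0.08. Between control replicate 1 and overexpression replicate 2 the SD was 0.66 for XLOC loci, 0.42 without XLOC_010526, and 0.24 for Ensembl rows. The 44 Ensembl long noncoding rows with such a mean had an SD of 0.32 between the control libraries. These are values of single library pairs that share libraries, and they were not tested.

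Part of the contrast goes with the level. Of the 462 loci, 72 had a mean between 1 and 2 FPKM, 80 between 2 and 5, 61 between 5 and 20, and 21 of at least 20 FPKM. In the band from 1 to 2 FPKM the SD between the control libraries was 0.39 for XLOC and 0.35 for Ensembl rows. From 2 to 5 FPKM it was 0.53 and 0.27, from 5 to 20 FPKM 0.23 and 0.19, and from 20 FPKM 0.10 for XLOC loci other than XLOC_010526 and 0.10 for Ensembl rows. In the band from 2 to 5 FPKM the SD rested in part on XLOC_006838, without which it was 0.38. The median size of the difference in that band was 0.15 for XLOC and 0.14 for Ensembl rows, and from 1 to 2 FPKM it was 0.23 and 0.18. In all, 6 of 234 loci differed past 2-fold between control replicates 1 and 2. They were XLOC_006838, XLOC_008579 (0.78 and 4.5 FPKM), XLOC_006536 (0.79 and 3.72 FPKM), XLOC_007387 (5.25 and 1.7 FPKM), XLOC_006839 (0.78 and 2.92 FPKM) and XLOC_008476 (0.36 and 1.82 FPKM).

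**Figure D4:**
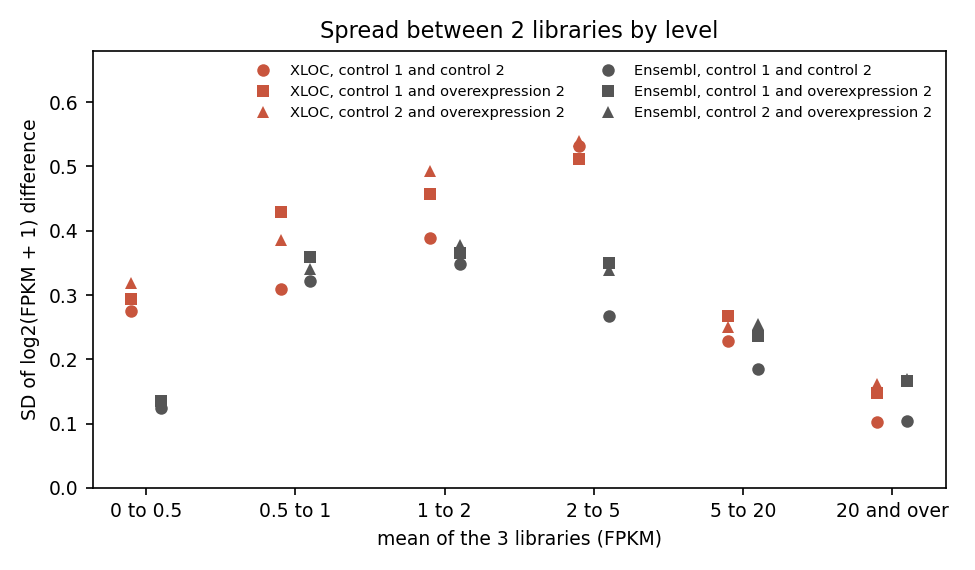
SD of the log2(FPKM + 1) difference between 2 libraries (vertical axis) for rows grouped by their mean FPKM over control replicates 1 and 2 and overexpression replicate 2 (horizontal axis), for shared XLOC loci without XLOC_010526 (red) and Ensembl rows (grey), with 1 point per pair of libraries. From 2 to 5 FPKM the XLOC points lie between 0.51 and 0.54 and the Ensembl points between 0.27 and 0.35, while from 20 FPKM both lie between 0.10 and 0.17.

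The comparison of overexpression replicate 2 with control replicates 1 and 2 asks which loci differ when XLOC013218 is overexpressed, with 1 library on one side and therefore no test. The median difference over the 234 loci was 0.03 on the log2(FPKM + 1) scale, and 0.00 over Ensembl rows. Of the 234 loci, 100 (42.7%) lay above both control values, against 38.7% of all 11922 rows, and 72 (30.8%) lay below both, against 38.2%. Outside both control values were thus 73.5% of the loci and 76.9% of all rows. Past 2-fold and outside both control values were 10 loci (4.27%), against 0.344% of all rows. Of these 10, 5 were higher (2.14%, against 0.185% of all rows) and 5 were lower (2.14%, against 0.159%). In the band from 1 to 2 FPKM the share was 6.94% for XLOC loci and 0.904% for Ensembl rows. From 2 to 5 FPKM it was 3.75% and 0.875%, and from 5 to 20 FPKM 1.64% and 0.213%. From 20 FPKM it was 4.76% (1 of 21 loci, XLOC_010526) and 0.0384%. Of the 44 Ensembl long noncoding rows, 2 (4.55%) met the same rule. With 0.1 in place of 1 added to the FPKM, 18 loci met it, 8 higher and 10 lower. No count over all rows is given at that setting. Single pairs of libraries were also counted, without the rule on both control values. Between the 2 control libraries 2.56% of the loci differed past 2-fold, against 0.231% of Ensembl rows. Between overexpression replicate 2 and control replicate 1 the shares were 3.85% and 0.385%, and with control replicate 2 they were 4.70% and 0.325%. The part of the spread within the control group in the larger share among XLOC loci was not tested.

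Increases and decreases were ranked only among loci outside both control values with the higher side at least 2 FPKM. After XLOC_010526, the largest increases so ranked were at low levels. The libraries that also list these loci did not hold values as high. XLOC_006867 was at 0.86 and 0 FPKM in control replicates 1 and 2, at 2.78 FPKM in overexpression replicate 2 and at 0.89 FPKM in overexpression replicate 3. XLOC_007883 was at 0.76 and 0.46 FPKM in control, 2.52 FPKM in overexpression replicate 2 and 0.53 FPKM in overexpression replicate 3. XLOC_007088 was at 0.69, 0.26, 2 and 0.7 FPKM in the same order. In each of these 3 loci overexpression replicate 2 alone was high. XLOC_001490, listed in all 6 libraries, was at 0.29, 1.09 and 1.8 FPKM in control replicates 1 to 3 and at 1.05, 2.53 and 1.2 FPKM in overexpression replicates 1 to 3, so that the groups overlapped.

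The largest decreases under the same limit of 2 FPKM differed in how they stood in the other libraries. XLOC_007387 was at 5.25 and 1.7 FPKM in control replicates 1 and 2, at 0 in overexpression replicate 2 and at 6.31 FPKM in overexpression replicate 3, so that the 2 overexpression libraries held its lowest and its highest value. XLOC_009160 was at 2.43, 3.81, 0.88 and 4.2 FPKM in the same order, again with the extremes in the overexpression libraries. XLOC_001593 was at 9.3, 9.6 and 3.7 FPKM in control and 3.51, 4.16 and 7.74 FPKM in overexpression replicates 1 to 3, with overlap. XLOC_002445 was at 1.35, 3.17 and 1.11 FPKM in control replicates 1 to 3 and at 0.25 and 0.7 FPKM in overexpression replicates 2 and 3, without overlap. XLOC_003259 was at 3.9, 2.63 and 0.69 FPKM in control and at 0.91 and 0.87 FPKM in overexpression replicates 2 and 3, and control replicate 3 was the lowest of the 5.

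**Figure D5:**
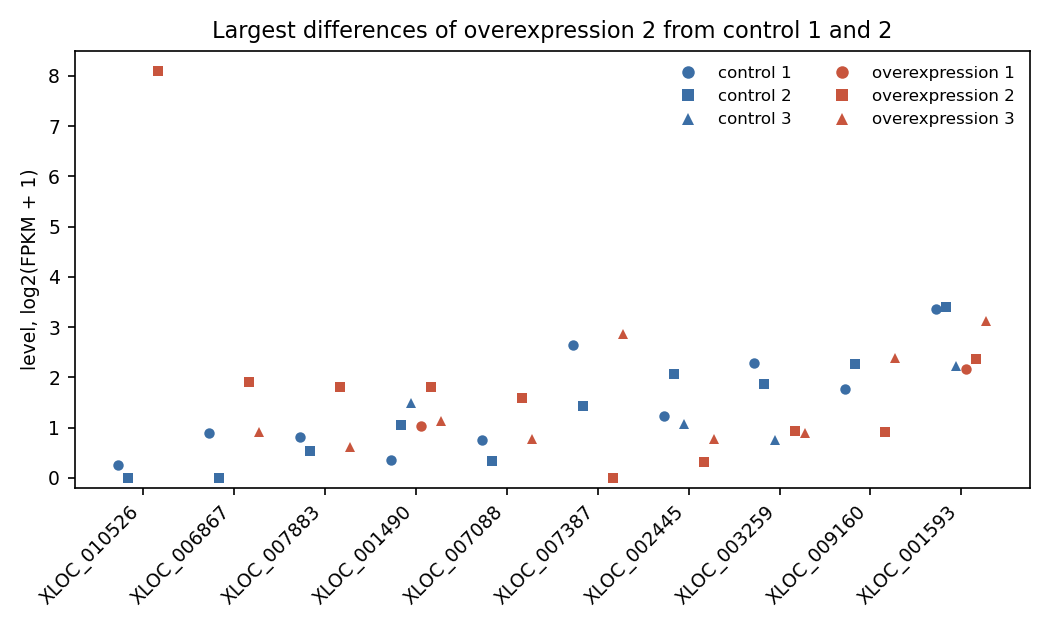
Level (vertical axis, log2(FPKM + 1)) of the 5 shared XLOC loci that rank first by increase and the 5 that rank first by decrease in overexpression replicate 2 relative to control replicates 1 and 2, with 1 point per library that lists the locus (blue, control; red, overexpression). Only loci outside both control values with the higher side at least 2 FPKM were ranked. Apart from XLOC_010526, most loci have overexpression replicate 3 on or near the control values.

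A fit with 2 libraries per group took in more loci. It used control replicates 1 and 2 and overexpression replicates 2 and 3, with limma on log2(FPKM + 1) over 11855 rows that averaged 1 FPKM or more, of which 160 were XLOC loci out of the 318 listed. At an adjusted p under 0.05, 0 of the 160 loci passed in limma, and 2 of all rows did (0.0169%). The count over all rows was 0 without control replicate 2 and 30 without overexpression replicate 2. At an unadjusted p under 0.05 there were 27 loci (16.9%), against 16.6% of all rows. Median log2 fold changes were 0.01 for the loci and 0.00 for all rows, and the groups did not overlap in 76 loci (47.5%), against 49.3% of all rows.

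The 5 loci with the lowest p in that fit did not pass. In XLOC_003259, described above, limma put the log2 difference at -1.16 ± 0.18 (SE) with an adjusted p of 0.130. XLOC_002777 was at 1.1 and 1.45 FPKM in control replicates 1 and 2 and at 3.42 and 2.87 FPKM in overexpression replicates 2 and 3, while control replicate 3, outside the fit, was at 3.4 FPKM and so within the overexpression range (limma adjusted p = 0.133). XLOC_003641 was at 3.78 and 3.54 FPKM in control and 2.16 and 1.87 FPKM in overexpression, and control replicate 3 was lower than both at 1.54 FPKM. For these 3 loci the control library outside the fit lay in or beyond the overexpression range. XLOC_007380 was at 3.25 and 4.23 FPKM in control and at 6.61 and 10.04 FPKM in overexpression, and has no value from a further library. Its log2 difference was 0.96 ± 0.20 (SE) in limma, with an adjusted p of 0.152. XLOC_001434, the remaining locus, had a limma adjusted p of 0.145 and was listed in all 6 libraries.

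With 3 libraries per group, 68 loci were listed and 27 reached the mean of 1 FPKM. In limma over 11731 rows, 0 of the 27 passed an adjusted p of 0.05, while 61 of all rows did (0.52%), a count that ran from 1 to 63 when 1 library was left out. At an unadjusted p under 0.05 there were 4 loci (14.8%), against 12.7% of all rows, and these were the 4 loci whose groups did not overlap, against 18.9% of all rows without overlap. The log2 fold changes of the 27 loci ran from -0.72 to 0.38 with a median of -0.00, 13 of them above 0. Their median size was 0.12, and 0.08 for Ensembl rows, with median standard errors of 0.13 and 0.08.

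The lowest p belonged to XLOC_001434, at 2.83, 3.67 and 2.87 FPKM in control and 1.78, 1.14 and 1.58 FPKM in overexpression replicates 1 to 3. The control mean was 3.12 ± 0.474 FPKM and the overexpression mean 1.5 ± 0.327 FPKM (SD, n = 3 per group). On the log2 scale the difference was -0.72 ± 0.14 (SE) in limma, with an adjusted p of 0.0702. XLOC_001619 was at 11.36, 12.39 and 11.2 FPKM in control and at 15.29, 15.76 and 13.89 FPKM in overexpression (log2 fold change 0.34, SE 0.08, limma adjusted p = 0.115). All 3 overexpression values of the first locus were lower than its control values, and those of the second were higher. XLOC_000597 was at 4.38, 4.66 and 5.24 FPKM in control and at 6.3, 5.96 and 5.9 FPKM in overexpression (limma adjusted p = 0.254). XLOC_000544 was at 1.08, 0.98 and 1.82 FPKM in control and at 2.68, 1.7 and 1.57 FPKM in overexpression, with overlap (limma adjusted p = 0.450).

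XLOC_001837, the second most abundant shared locus, was at 176.37, 170.61 and 180.42 FPKM in control and at 210.8, 210.89 and 192.1 FPKM in overexpression replicates 1 to 3. The control mean was 176 ± 4.93 FPKM and the overexpression mean 205 ± 10.8 FPKM (SD, n = 3 per group), without overlap, and it did not pass (log2 fold change 0.22, SE 0.05, limma adjusted p = 0.119). It carried most of the difference in the summed level. The 68 loci summed to 689.74, 681.31 and 706.37 FPKM in control and to 742.36, 725.76 and 717.08 FPKM in overexpression replicates 1 to 3, without overlap, and the means were 692 ± 12.8 and 728 ± 12.8 FPKM (SD, n = 3 per group). An exact two-sided permutation test gave p = 0.1, the smallest that 3 libraries against 3 allow. Without XLOC_001837 the sums were 517 ± 8.14 and 524 ± 8.41 FPKM and overlapped, with an exact permutation p of 0.3, and rescaling to TPM also gave an exact permutation p of 0.3 for all 68 loci.

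The loci were unevenly spread over the assembly's numbers. They run from number 3 to number 14615 and take 3.16% of the numbers in that range, with a median step of 14 and a largest step of 274. Numbers next to each other occurred in 86 pairs, which held 144 of the 462 loci. The mean FPKM over the 3 libraries had a median of 1.62 for loci in such pairs and 0.88 for the others. Across the 86 pairs the levels of partners correlated with a Spearman rho of 0.48, and across the 375 pairs of listed loci that follow each other with a gap in number rho was -0.04. These correlations are across loci that come from the same libraries and in part share a locus between pairs, so they are a description.

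The longest runs of adjacent numbers had 5 loci. In the run from XLOC_006835 to XLOC_006839 all mean levels lay between 1.89 and 14.3 FPKM. XLOC_006835 was at 4.02, 4.17, 4.22 and 4.24 FPKM in control replicates 1 and 2 and overexpression replicates 2 and 3, and XLOC_006837 at 7.74, 8.14, 8.46 and 9.35 FPKM. XLOC_006838 and XLOC_006839 in the same run were 2 of the 6 loci that differed past 2-fold between the control libraries, one higher in control replicate 1 and the other higher in control replicate 2. Whether reads are shared among neighbouring loci was not tested, because no position or sequence was used here.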

How the data were processed

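The authors deposited 1 table per library with FPKM values per Ensembl gene and per XLOC locus, given to 2 decimals. The build was hg18 per the submitters' processing notes, which also name RSEM 1.3.1, edgeR, Cufflinks 2.2.1, Bowtie and TopHat without giving the step each was used for. Tables end at different XLOC numbers, and the last, incomplete line of 5 of the 6 tables was not read. Gene classes came from GENCODE 29 by gene identifier, and 818 of 20330 rows had no match.

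Rows were compared on log2(FPKM + 1), without further scaling, with limma 3.58.1 in R 4.3.3 (trend, two-sided, Benjamini-Hochberg adjustment over all Ensembl and XLOC rows with a mean of at least 1 FPKM). Summaries used Python 3.11.15, pandas 2.3.3 and numpy 2.4.6. A difference past 2-fold means at least 1 on that log2 scale, which understates changes at low levels. The limma fits were also run on simulated data with independent noise and no library-wide effects. The outcome is not given here, and no result rests on it.

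Named loci are the 12 with the highest mean, the 5 with the lowest p in each fit, and the 5 largest increases and decreases of overexpression replicate 2 outside both control values with the higher side at least 2 FPKM. Others were chosen after their values were seen. The members and lists were chosen with earlier results of these data known. Alternatives covered the pseudocount, filter, scaling, trend, replicate block, libraries left out and the set of rows.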

Additional observations from a re-analysis of the deposited data

How the results depend on the processing

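The count of 0 called XLOC loci held in 13 of 14 alternatives of the fit with 3 libraries per group and in 7 of 8 with 2 per group. It became 1, XLOC_010526, when libraries that do not list a row were treated as missing. It ran from 0 to 1 with 1 library left out of the fit with 2 per group, where the 1 is the same locus without overexpression replicate 3, whose table does not reach it, so that 234 and not 160 loci were tested. Both calls rest on 1 overexpression value at a locus that passed the filter through that value, and are no replicated result. Over all rows, the 61 calls became 1 with no filter, 1 without a trend, 19 with the replicate block, and between 1 and 63 with 1 library left out (1, 1, 2, 3 and 23 in turn without control replicates 1, 2 and 3 and overexpression replicates 1 and 3). Same-numbered libraries had correlations of deviations from their group means of -0.0398, -0.0576 and 0.0446, so the numbers were not taken as pairs, and the block changed no XLOC call. With 2 per group, the 2 calls over all rows became 0 at a pseudocount of 0.1, with no filter and without a trend, 1 after rescaling to TPM, and 0 to 30 with 1 library left out, counts added after seeing the data.

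The share at 0 of XLOC minus Ensembl rows, -19.2 points, was -53.9 against rows that are not protein-coding, -26.0 with 0.1 FPKM as the limit, reversed to 7.44 with 1 FPKM, and lay between -19.9 and -18.8 with 1 library left out. The median level difference of -1.14 became -1.32 over loci in all 6 tables, -1.19 over every listed locus, -1.66 at a pseudocount of 0.1 and -2.47 over rows above 0, and reversed to 1.01 against rows that are not protein-coding, whose median is 0 (-1.16 to -1.12 with 1 library left out). At a pseudocount of 0.1 the control spread was 0.69 for XLOC and 0.26 for Ensembl rows. At that setting 18 XLOC loci were past 2-fold in overexpression replicate 2, with no count over all rows given. At the pseudocount of 1 that count was 10, and it was 9 to 11 with 1 control left out. The median difference of 0.0277 ranged from 0.0224 to 0.0423 with 1 control left out. Without XLOC_006838 the control spread from 2 to 5 FPKM went from 0.53 to 0.38. Leaving out XLOC_010526, also chosen after seeing the data, moved the spread between overexpression replicate 2 and control replicate 1 from 0.66 to 0.42 and the excess in summed level from 358 to 86.2 FPKM. The difference of 35.9 FPKM in the sum over 68 loci lay between 28.9 and 42.9 with 1 library left out. Causes of these shifts other than the rows and libraries used were not tested. Depth limits what loci under 1 FPKM can show.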

Other observations

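Beyond the 462 loci, 68 further XLOC loci were listed for control replicate 2 and overexpression replicate 2, with medians of 1.01 and 0.865 FPKM and 1 locus at 0 in each library. XLOC_016337, at 1.03 and 3.31 FPKM, had the largest increase among them on the log2(FPKM + 1) scale, 1.09, and XLOC_016336, the number before it, was at 1.27 and 3.39 FPKM. XLOC_016512, at 1.52 and 0.34 FPKM, had the largest decrease, -0.91. These are values of 1 library against 1 with no replicate check. A last 61 loci were listed for overexpression replicate 2 alone, with a median of 0.78 FPKM and 0 of them at 0, and the highest, XLOC_017967, was at 33.84 FPKM.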
